A study of Mus musculus with 6 samples.

Results

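The genes that carry catecholamine synthesis, storage and breakdown were followed in adrenal gland RNA of mice without the neuropeptide PACAP and of wild-type mice. The genes are Th, Gch1, Qdpr, Ddc, Slc18a1 and Maoa, taken by name from the annotation of the array's probes, with no measured value in the rule, though earlier results of these data were known when the pathway was chosen. They were represented by 8 of the 36013 spotted cDNA clones, 1 each for Th, Gch1, Ddc and Slc18a1 and a pair each for Qdpr and Maoa, and all 8 were among the 28708 clones with enough values to be tested. The knockout RNA came from adrenal glands of PACAP -/- mice and the other from PACAP +/+ mice, both F2 animals of the same mixed 129XC57BL6 background. Each of 6 arrays held 1 knockout RNA labelled with Cy3 (green) and 1 wild-type RNA labelled with Cy5 (red). The dyes were never exchanged, so that genotype and dye cannot be told apart for any 1 clone. Arrays are numbered repeats in the labels, with nothing on whether separate animals were used, and p-values accordingly describe array-to-array spread, which may be technical. Age and sex of the mice are not given in the sources used here.

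Chromaffin cells of the adrenal medulla make adrenaline and noradrenaline from tyrosine and keep them in granules until the splanchnic nerve calls for secretion, and PACAP is one of the transmitters of that nerve. Th (tyrosine hydroxylase) performs the first and rate-limiting step and needs tetrahydrobiopterin as cofactor. Gch1 (GTP cyclohydrolase) begins the synthesis of that cofactor and Qdpr (dihydropteridine reductase) regenerates it. Ddc (aromatic L-amino acid decarboxylase) then forms dopamine, Slc18a1 (the vesicular monoamine transporter VMAT1) loads amines into the granule, and Maoa (monoamine oxidase A) oxidises amines that remain in or return to the cytosol.

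Because cAMP and AP-1 signalling are textbook inputs to Th, the promoters of Th and of the cofactor gene Gch1 are shown as the sequences closest to the question. Windows of 300 bases, 250 before and 50 after the annotated start, were available for 5 of the 6 genes from RefSeq (GRCm38.p6), with a pair of windows for Ddc. Capitals mark every match on either strand to TGACGTCA (the cAMP response element), to its core TGACG, which lies within it, and to TGANTCA (the AP-1 element).
Th promoter, minus strand of chr7:142899946-142900245: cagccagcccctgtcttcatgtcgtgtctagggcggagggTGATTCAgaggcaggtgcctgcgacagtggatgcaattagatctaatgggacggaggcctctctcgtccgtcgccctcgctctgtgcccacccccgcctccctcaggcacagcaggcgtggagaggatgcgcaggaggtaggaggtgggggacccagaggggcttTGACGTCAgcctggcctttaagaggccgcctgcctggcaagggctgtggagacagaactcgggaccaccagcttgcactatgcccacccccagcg
Gch1 promoter, minus strand of chr14:47189364-47189663: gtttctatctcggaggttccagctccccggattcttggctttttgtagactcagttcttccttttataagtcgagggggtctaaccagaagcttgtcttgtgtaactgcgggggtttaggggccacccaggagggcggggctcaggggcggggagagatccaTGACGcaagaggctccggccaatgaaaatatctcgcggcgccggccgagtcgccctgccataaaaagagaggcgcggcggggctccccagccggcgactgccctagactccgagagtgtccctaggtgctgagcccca
The full element began at -45 in Th and was in no other of the 6 windows, and 1.79% of all 32851 promoter windows in the table held it. The core alone began at -88 in Gch1 and at -209 in Maoa, and 20.8% of all windows held the core, with or without the full element. The AP-1 element began at -210 in Th and at -129 in the upstream window of Ddc, and 7.81% of all windows held it. These are matches of letters and not measurements of binding.

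The ratios below are log2 values, knockout divided by wild type, after global loess, which removes the trend of the ratio with brightness over a whole array, and they were tested against 0 with limma, Benjamini-Hochberg adjustment over all tested clones and a threshold of 0.05. Values after print-tip loess, which does the same within each of the 48 areas (print blocks) laid down by 1 pin, stand beside them, because differences between blocks held 46.7% of the variance in mean ratios and block medians ran from -0.60 to 0.53. The median red (wild-type) signal over its local background was 4.57, 1.32, 2.00, 1.11, 2.02 and 1.59 on arrays 1 to 6, against 5.15 to 6.79 for green (knockout). Background had already been subtracted from these signals, so a value below 1 does not mean a spot dimmer than its surroundings. Adcyap1, the targeted gene, had 1 clone, which passed the quality filter on 2 arrays and gave no check of the labels (-0.18 ± 0.24 without the filter, SE, n = 6, limma adjusted p = 0.603).

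With global loess 2 of the 8 clones were higher in the knockout (Th and 1 Qdpr clone), 2 were lower (Slc18a1 and the other Qdpr clone) and 4 did not pass (Gch1, Ddc and both Maoa clones). Of all clones tested, 16.2% passed as higher and 14.2% as lower, 30.4% together. After print-tip loess 1 of the 8 passed, Slc18a1 as lower, where 11.4% of all clones passed (4.62% as lower, 6.74% as higher), so the members' share lay near that of all clones. The median log2 ratio of the 8 clones was 0.17 with global loess and 0.26 after print-tip loess, against 0.02 and 0.00 for all clones. Without arrays 2 and 4, which had the weakest red signal, none of the 7 clones still testable (all but Slc18a1) passed in limma with global loess, where 8.62% of all clones did (6.22% as higher, 2.4% as lower). At an unadjusted p under 0.05 there were then 1 higher, Th, and 1 lower, the Qdpr clone AU023976, where 15.5% of all clones were higher and 10.9% lower. After print-tip loess with all arrays no member passed as higher in limma; at an unadjusted p under 0.05, 4 were higher and 1 was lower, where 17.7% of all clones were higher and 15.1% lower.

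**Figure D1:**
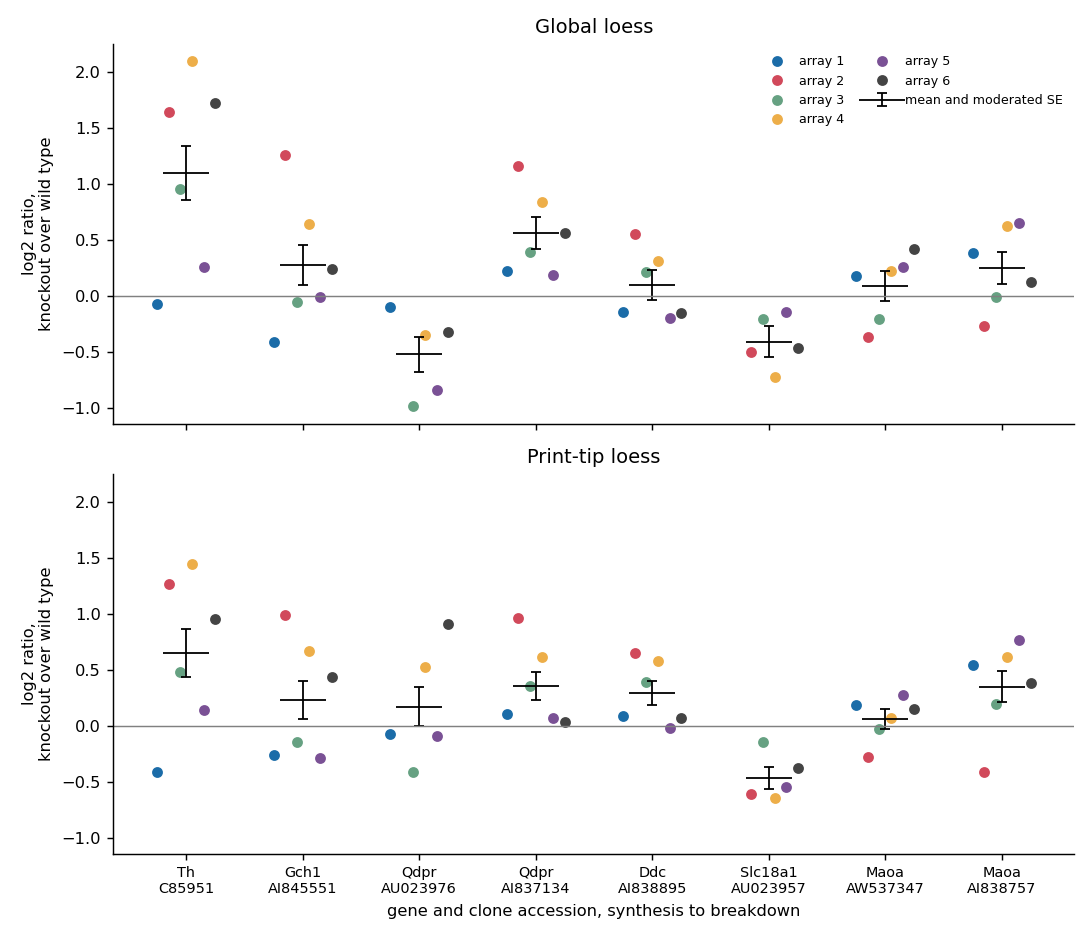
Log2 ratio, knockout over wild type (vertical axis), of each of the 8 clones (horizontal axis, synthesis to breakdown) on arrays 1 to 6 (coloured points), with the mean and its moderated SE (black), after global loess (upper panel) and print-tip loess (lower panel). The Slc18a1 points lie below 0 in both panels, the Th points spread most with global loess, from -0.07 to 2.09, and the Qdpr clone AU023976 is below 0 in the upper panel and on both sides of 0 in the lower one.

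Th was the member with the largest ratio and the largest spread. Its background-subtracted spot signal was 3533, 5573, 5642, 3725, 4310 and 9887 in knockout RNA on arrays 1 to 6, against 3183, 827, 1414, 295, 1704 and 1026 in wild-type RNA. The knockout signal exceeded the wild-type one on each array before normalization, as it did for most clones, and by least on array 1. After global loess the log2 ratios of Th were -0.07, 1.64, 0.95, 2.09, 0.26 and 1.72, a mean of 1.10 ± 0.24 (moderated SE, n = 6), or 2.14-fold (limma adjusted p = 0.00518). Arrays 2, 4 and 6 gave high ratios, array 3 an intermediate one, and arrays 1 and 5 ratios near 0. Ordered by these ratios the arrays run almost as they do from weakest to strongest red signal over background (4, 2, 6, 3, 5, 1), with arrays 2 and 6 exchanged; the part of that in the ratio was not tested.

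After print-tip loess the Th ratio was 0.65 ± 0.22 (n = 6, limma adjusted p = 0.0719), with -0.41, 1.27, 0.48, 1.45, 0.14 and 0.96 on arrays 1 to 6, so that 5 of 6 arrays were above 0 with either method. The 95% confidence interval of the mean ran from 0.59 to 1.61 with global loess and from 0.17 to 1.13 after print-tip loess. The clone lay in block 47, whose median log2 ratio was 0.26. With global loess Th kept its call without any single array (0.90 to 1.33), while arrays 1, 3, 5 and 6 alone gave 0.71 (limma adjusted p = 0.0665). The same 4 arrays gave 0.29 by print-tip loess (adjusted p = 0.40). In the authors' value table, turned to knockout over wild type and median centred, Th was at 0.26 (adjusted p = 0.481).

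**Figure D2:**
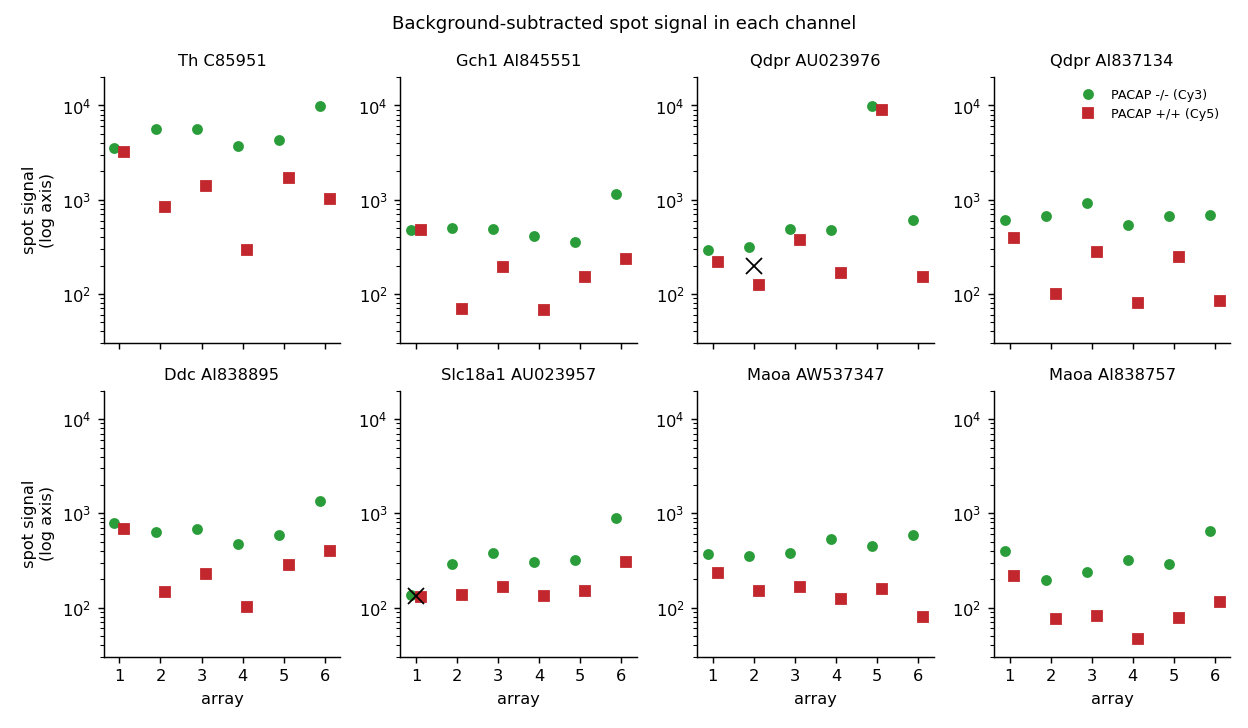
Background-subtracted spot signal (vertical log axis, in scanner units) of each of the 8 clones on arrays 1 to 6 (horizontal axis), in the knockout channel (green circles) and the wild-type channel (red squares); crosses mark the spots left out for quality. The knockout signal of Th stays between 3533 and 9887 while its wild-type signal ranges from 295 to 3183, and the Qdpr clone AU023976 is bright in both channels on array 5 alone.

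The cofactor genes did not give a uniform picture. For Gch1 the log2 ratios were -0.41, 1.26, -0.05, 0.64, -0.01 and 0.24 on arrays 1 to 6, with 3 arrays on each side of 0. Array 2 was the highest, where its background-subtracted wild-type signal of 69.8 was 0.46 times the local background. Its signal ran from 359 to 1137 in knockout RNA and from 67.1 to 477 in wild-type RNA. The mean was 0.28 ± 0.18 (n = 6, limma adjusted p = 0.263; 95% interval -0.11 to 0.67), or 0.23 ± 0.17 after print-tip loess (adjusted p = 0.356), with -0.06 (adjusted p = 0.863) on arrays 1, 3, 5 and 6 alone. The scanner files title a further clone (AI844503) GTP cyclohydrolase 1, but the probe annotation lists other genes for it, so it was not counted. It was at -0.01 ± 0.18 (n = 6, adjusted p = 0.962), or 0.21 ± 0.17 after print-tip loess.

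The Qdpr clones passed in opposite directions with global loess. Clone AI837134 was at 0.23, 1.16, 0.39, 0.84, 0.19 and 0.57 on arrays 1 to 6, above 0 on all 6, with a mean of 0.56 ± 0.14 (1.48-fold, limma adjusted p = 0.0113). It lies in block 20, whose median was 0.26, so that it stood 0.30 above the middle of its block. After print-tip loess the same clone was at 0.36 ± 0.13, still above 0 on 6 of 6 arrays, and missed the threshold (adjusted p = 0.0842). With global loess its call held without any single array (0.44 to 0.64), but it fell short on arrays 1, 3, 5 and 6 alone (0.34, adjusted p = 0.192).

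Clone AU023976 passed the quality filter on 5 arrays, at -0.10, -0.98, -0.35, -0.84 and -0.32 on arrays 1, 3, 4, 5 and 6. Its mean was -0.52 ± 0.16 (n = 5; limma adjusted p = 0.0252), all 5 below 0. It lies in block 1, whose median over 641 clones was -0.60, the lowest of all 48 blocks, so that it stood 0.09 above the middle of its block. After print-tip loess it was at 0.17 ± 0.18 (adjusted p = 0.521), with 2 of 5 arrays above 0, and the lower call also ended without array 3 (-0.40, adjusted p = 0.11), array 4 (-0.56, adjusted p = 0.0533) or array 5 (-0.44, adjusted p = 0.0825). On array 5 its signal was 9880 in knockout and 8938 in wild-type RNA, against at most 607 in knockout and 374 in wild-type RNA on the other arrays. Over the 5 arrays that both clones share, AI837134 exceeded AU023976 by 0.96 ± 0.18 (SE; higher on 5 of 5) with global loess and by 0.06 ± 0.26 after print-tip loess. The exact two-sided permutation test over arrays gave p = 0.0625 with global loess, the smallest that 5 arrays allow, and p = 0.688 after print-tip loess. Adjusted over the 2 pairs compared, Qdpr and Maoa, these were 0.125 and 0.688.

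**Figure D3:**
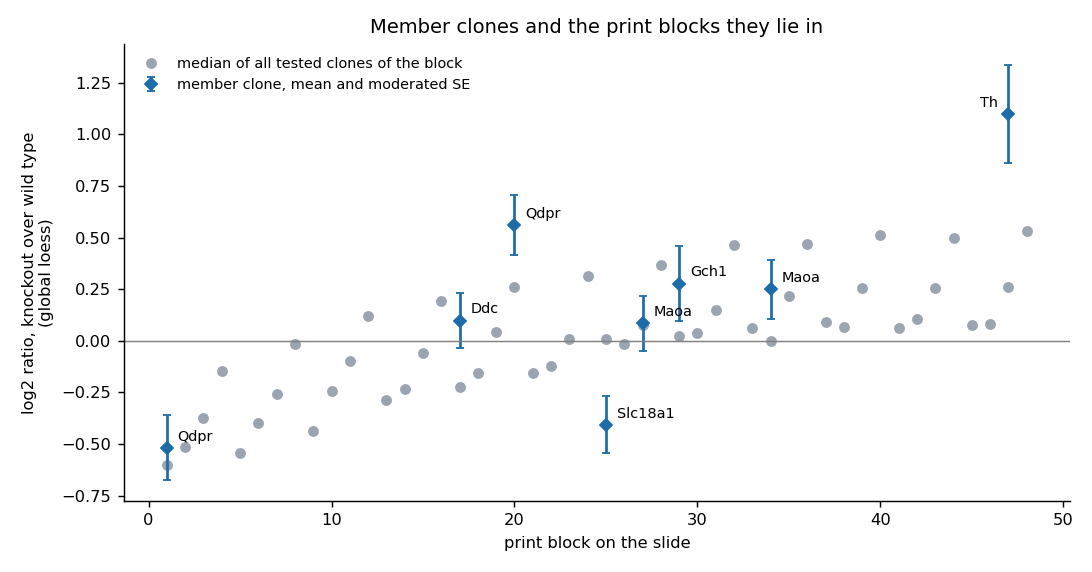
Log2 ratio after global loess (vertical axis) against print block on the slide (horizontal axis): grey points are medians of all tested clones of a block, blue diamonds the 8 clones of the pathway with their moderated SE. Block medians run from -0.60 in block 1 to 0.53 in block 48 without a steady climb, with blocks 45 and 46 both at 0.08. The Qdpr clone at -0.52 sits by its block's median, and Slc18a1 at -0.41 lies below a block median of 0.01.

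Ddc, the enzyme that follows Th, did not pass with either method. Its signal ran from 471 to 1341 in knockout RNA and from 101 to 687 in wild-type RNA. Its log2 ratios were -0.15, 0.56, 0.21, 0.31, -0.20 and -0.15 on arrays 1 to 6, 3 on each side of 0, with a mean of 0.10 ± 0.13 (n = 6, limma adjusted p = 0.606; 95% interval -0.19 to 0.39). Print-tip loess gave 0.29 ± 0.11, above 0 on 5 of 6 arrays (adjusted p = 0.0905). The interval after print-tip loess, 0.06 to 0.53, is for this clone alone and not corrected for the number of clones tested.

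Slc18a1 was the only one of the 8 clones that passed with both methods, and it was lower in the knockout. Its log2 ratios were -0.50, -0.21, -0.72, -0.14 and -0.47 on arrays 2 to 6, array 1 having failed the quality filter, and none reached 0. The mean was -0.41 ± 0.14 (n = 5, 1.33-fold lower, limma adjusted p = 0.0415), or -0.46 ± 0.10 after print-tip loess (1.38-fold lower, adjusted p = 0.0314; -0.61, -0.15, -0.64, -0.54 and -0.37 on the same arrays). The median of its block, block 25, was 0.01. Its spot was dim: the signal was 291, 379, 307, 321 and 892 in knockout RNA and 137, 166, 134, 148 and 304 in wild-type RNA on arrays 2 to 6, between 1.07 and 3.15 times the local background in the wild type. The raw knockout signal was thus above the wild-type one, by less than for the array as a whole. With global loess the call ended without array 2 (-0.38, limma adjusted p = 0.113), array 3 (-0.46, adjusted p = 0.0646), array 4 (-0.33, adjusted p = 0.165) or array 6 (-0.39, adjusted p = 0.0599). With print-tip loess the call ended without array 2, 3, 4, 5 or 6 (-0.54 to -0.42). Leaving out array 1 removed no value of this clone and so could not test its call. Print-tip loess without array 2, 3, 4 or 6 called 0 of all clones lower. In the authors' value table, turned and centred as for Th, Slc18a1 was at 0.43 (adjusted p = 0.54). Its title in the scanner files reads as weak similarity to the rat chromaffin granule amine transporter.

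Neither Maoa clone passed. Clone AW537347 was at 0.18, -0.36, -0.21, 0.22, 0.26 and 0.42 on arrays 1 to 6, a mean of 0.09 ± 0.13 (n = 6, limma adjusted p = 0.655; 95% interval -0.20 to 0.37), and at 0.06 ± 0.09 after print-tip loess (adjusted p = 0.635). Clone AI838757 was at 0.38, -0.27, -0.01, 0.62, 0.65 and 0.12, a mean of 0.25 ± 0.14 (adjusted p = 0.197; 95% interval -0.06 to 0.55), and at 0.35 ± 0.14 after print-tip loess (adjusted p = 0.114; 95% interval 0.04 to 0.66, for this clone alone). Array 2 was the lowest for both clones. The signal of the pair ran from 198 to 654 in knockout RNA and from 46.5 to 235 in wild-type RNA. The background-subtracted wild-type signal of AI838757 was larger than its local background on 2 of the 6 arrays, that of AW537347 on 5. AI838757 exceeded AW537347 by 0.16 ± 0.10 (SE, 5 of 6 arrays; exact permutation p = 0.219, or 0.219 adjusted over the 2 pairs), and by 0.28 ± 0.10 after print-tip loess (exact p = 0.0625, adjusted 0.125), where 6 arrays allow no p below 0.0312.

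Other genes of the pathway were read from lists chosen by name. Of the 6 further genes of tetrahydrobiopterin synthesis and recycling, 4 were tested with 5 clones, and none of the 5 passed with either method in limma. The 4 genes were Pts and Spr, the later enzymes of cofactor synthesis (both named here by the titles in the scanner files), and Pcbd1 and its relative Pcbd2, dehydratases of the recycling branch. Their log2 ratios lay between -0.26 and 0.01 with global loess and between -0.22 and 0.17 after print-tip loess. At an unadjusted p under 0.05 there was none with global loess and 1 lower after print-tip loess, the clone of Pts. Of the 8 further genes of synthesis, vesicular storage and uptake none had enough values to be tested: the plasma membrane transporters Slc6a2 and Slc6a3 had values on 2 arrays and 1 array, and Dbh and Pnmt, which make noradrenaline and adrenaline, were not analysed here. The clones listed jointly with Slc18a2 and another gene were not assigned.

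Genes of aldehyde handling, which can act on the products of monoamine oxidase among other aldehydes, were more often higher than lower. Of 10 tested clones of 6 genes, 5 were higher, none was lower and 5 did not pass with global loess, beside 16.2% of all clones higher, and 3 were higher and none lower after print-tip loess, beside 6.74%. At an unadjusted p under 0.05, limma had 7 higher and none lower with global loess, beside 22.3% of all clones higher and 20.2% lower, and 8 higher and 1 lower after print-tip loess, beside 17.7% and 15.1%. The lower clone was that of Aldh9a1, at 0.09 ± 0.11 with global loess and -0.21 ± 0.09 after print-tip loess. Leaving out arrays 2 and 4, the count of higher clones was 3 with global loess, beside 6.22% of all clones, and 0 after print-tip loess, beside 0.324% (0.0231% lower). At an unadjusted p under 0.05 it was then 4 with either method, beside 15.5% of all clones with global loess and 10.7% after print-tip loess (7.84% lower). The median of the 10 clones was 0.55 with global loess and 0.55 after print-tip loess, against 0.02 and 0.00 for all clones. The list was brighter than most spots: its knockout signal had a median of 20.1 times the local background, against 5.15 to 6.79 for all spots. The part of brightness in these counts was not tested. Akr1a1, an aldehyde reductase, had a pair of clones that passed with both: BE951395 at 1.75 ± 0.18 (n = 6, limma adjusted p = 0.000206; 1.24 ± 0.25 and adjusted p = 0.0284 after print-tip loess) and AW555675 at 0.89 ± 0.21 (adjusted p = 0.00786; 0.78 ± 0.20 and 0.0396). The remaining Akr1a1 clone, the only one that the scanner files title as this gene, was at 0.50 ± 0.20 (adjusted p = 0.067; 0.49 ± 0.22 after print-tip loess) and did not pass.

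Aldh2, the mitochondrial aldehyde dehydrogenase, was at 0.38 ± 0.13 (n = 6, limma adjusted p = 0.0363), higher on 6 of 6 arrays, and at 0.61 ± 0.12 after print-tip loess (adjusted p = 0.028). The global loess call of Aldh2 ended without array 1, 2, 4 or 5 (0.30 to 0.44, highest adjusted p = 0.145). Aldh3a2 (0.88 ± 0.19) and a clone of Aldh1a1 (0.90 ± 0.23) completed the 5 and did not pass after print-tip loess (0.34 and 0.84, limma adjusted p = 0.0753 and 0.0508). The other Aldh1a1 clone was at 0.51 ± 0.25 (limma adjusted p = 0.134), or 0.40 after print-tip loess. The Akr1b3 clones, named by the scanner titles, were at 0.37 and 0.59, or 0.55 and 0.56 after print-tip loess, and like it did not pass with either method. Each of the 3 print-tip calls (Aldh2 and the pair of Akr1a1 clones) ended without array 2, 3, 4 or 6, and that of AW555675 without array 5 as well, with log2 ratios that stayed between 0.50 and 1.51. Without array 2, 3 or 6 that method called 1 of all clones in each fit, and without array 4 it called 19, none of them a clone of the 6 genes or one of these 15 pathway clones.

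**Figure D4:**
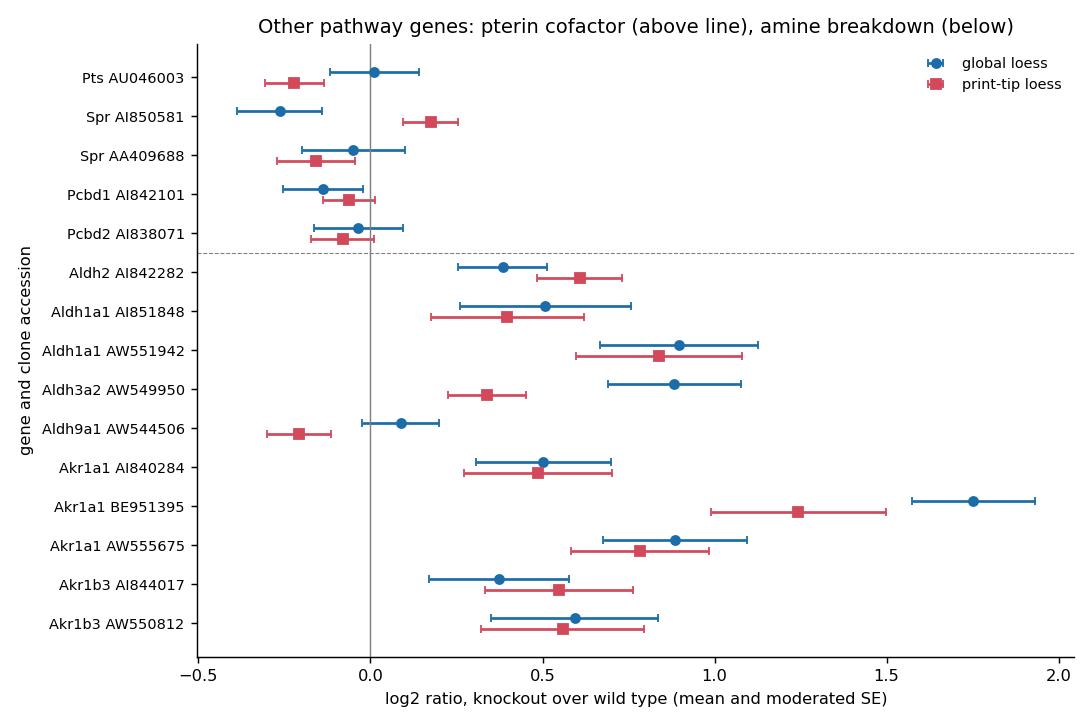
Log2 ratio, knockout over wild type, with its moderated SE (horizontal axis) for the 15 tested clones of other pathway genes (vertical axis), after global loess (blue circles) and print-tip loess (red squares). The 5 clones of tetrahydrobiopterin genes lie between -0.26 and 0.17 across both methods, and of the 10 clones of amine breakdown genes the Akr1a1 clone BE951395 is highest at 1.75 and 1.24.

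RNA of the whole gland holds medulla and cortex, and fewer cells of a type cannot be told apart from less RNA per cell. Of 14 chromaffin cell markers, none of them a member, 9 were tested with 22 clones: global loess called 11 clones higher and 1 lower, beside 16.2% and 14.2% of all clones, and 8 were higher and none lower after print-tip loess, beside 6.74% and 4.62%, with medians of 0.33 and 0.37. Clones higher with global loess belonged to Chga, Chgb, Scg2, Scg3, Snap25 and Uchl1, and the lower one to Snap25. After print-tip loess the higher ones belonged to Chga, Chgb, Scg2, Scg3 and Uchl1. The scanner files give other genes as titles for the only Scg2 clone (patched homolog) and for a Chga clone that passed with both methods (AI847067). No clone of Npy, Gata3 or Syt1 passed with either method (-0.16, -0.23 and 0.11 to 0.16 with global loess). The summed signal of the chromaffin marker clones, not normalized between dyes, ranged from 50273 to 84574 in knockout RNA and from 9521 to 54500 in wild-type RNA over the arrays. Of 11 cortex markers 7 were tested with 11 clones, of which 6 were higher with global loess and 4 after print-tip loess, none lower, beside the same shares, with medians of 0.45 and 0.62 and sums of 73096 to 134174 in knockout RNA and 9140 to 67494 in wild-type RNA. The median knockout signal was 21.1 times the local background for chromaffin and 23.3 times for cortex marker clones. The part of this brightness in the counts was not tested. Markers of kidney, where Ddc is also made, were tested for 1 of 8 genes, at a log2 ratio of 0.00. Clones of liver (4), macrophage (7), adipocyte (1), endothelial (5) and erythroid (3) markers had median log2 ratios of -0.31, 0.15, 0.30, -0.13 and 0.11 with global loess. After print-tip loess these medians were -0.11, 0.22, 0.21, -0.002 and 0.007. With global loess 1 liver, 2 macrophage and 1 endothelial clone were higher and 2 liver clones lower, beside the same shares of all clones. After print-tip loess 1 macrophage clone was higher and 1 liver clone lower. The members Th and Slc18a1 stood at 1.10 and -0.41 beside these lists. The part of the marker shifts in the ratios of the members or of the aldehyde genes was not tested.

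Over the 6 arrays the clones with the most similar profile were named for 5 of the 6 genes, from 14680 clones with 1 gene and all 6 values. Th was most like Star, which carries cholesterol into mitochondria of the cortex (Pearson's r = 0.993 across 6 arrays), and 142 clones had r above 0.95 with it. Gch1 was most like Diaph1 (r = 0.995), the Qdpr clone AI837134 like Rtl8b (r = 0.997), Ddc like Ddhd1 (r = 0.995) and the Maoa clone AW537347 like Thnsl1 (r = 0.984). All these profiles share the same 6 arrays and dyes.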

How the data were processed

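The scanner files hold spot intensities that the authors had deposited with the local background already subtracted, as the median of 1.0 at 768 empty positions shows for red and green. The deposited calibrated ratio is a red to green ratio scaled by an array-wide constant, and the deposited quality score is a fraction between 0 and 1. Per the series' design text, scans were made with a GenePix 4000A and ratios were used where quality exceeded 0.3. The authors' value table holds log2 ratios of red over green; 35793 of its 35873 rows (99.8%) matched 1 spot within 0.002 on all arrays, after a second background subtraction and a floor of 1.0, which settles scale and direction (medians -0.10, -1.65, -0.84, -2.59, -0.67 and -1.11 on arrays 1 to 6, not centred).

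Green over red was computed from the intensities, with quality above 0.3 and 1048 empty or control spots left out, normalized by loess (span 0.3, 4 iterations), averaged per clone and tested on at least 4 arrays by a moderated linear model (lmFit, eBayes) in limma 3.58.1 under R 4.3.3. Exact permutation tests ran in Python 3.11.15. The fit was tested on simulated arrays with a dye curve but no differences between print blocks, so that test does not cover block effects. Clones were named by the value table's annotation, updated by gene ID through RefSeq (GRCm38.p6); 22364 clones had 1 gene, 1105 several and 12544 none. In UniGene clusters with enough named clones, 422 of 3903 clones (10.8%) had another gene than most of their cluster.

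All clones of the members are named, then pathway genes with a clone past the threshold under both normalizations. The other tested pathway genes and the tested chromaffin cell marker genes are named as well. Clones of the other marker lists are given as counts and medians. Profiles are matched by the highest Pearson's r. An item of the pathway lists is not reported here. Members, lists and tests were chosen with earlier results of these data known, although no measured value enters the rule for members. Alternatives were print-tip loess, median centring, other quality limits, background added back, the authors' table, all 6 arrays required, and arrays left out. Precision is limited by the number of arrays.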

Additional observations from a re-analysis of the deposited data

Results flagged for a closer look

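In 32 sets of values, the ratios and the signal of each channel for each of the 8 clones, the array farthest from the others stood apart by more than Dixon's 95% critical value in 5 sets, all of them signals and none a ratio; chance marks about 1 set in 20. The Qdpr clone AU023976 was far brighter on array 5 than on the other arrays in both channels, with a log2 signal of 13.27 in knockout RNA and 13.13 in wild-type RNA. The Slc18a1 clone was brightest on array 6 in both channels, with a log2 signal of 9.80 in knockout RNA and 8.25 in wild-type RNA. The Gch1 clone was brightest on array 6 in knockout RNA alone, with a log2 signal of 10.15, where array 6 also had the highest median green signal of all spots (805, against 448 to 560 on the others).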

How the results depend on the processing

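Of the 4 member calls with global loess, print-tip loess ended 3. Member clones higher numbered 2 with global loess and with any 1 array left out, and 0 after print-tip loess, in the authors' table, without arrays 2 and 4, or with print-tip loess and both those arrays left out (an alternative added after seeing the data); after print-tip loess with 1 array left out they numbered 0 to 1. Member clones lower numbered 2 with global loess, and 1 after print-tip loess or with no quality filter. They numbered 0 with median centring or in the authors' table. Without arrays 2 and 4 they numbered 0 with either loess, but Slc18a1 could not be tested there. With values on all 6 arrays required, neither lower clone could be tested, since each had values on 5. With 1 array left out member clones lower numbered 0 to 2, or 0 to 1 after print-tip loess. The 1 there was Slc18a1 without array 1, on which it had no value. Over all clones, 4646 were higher and 4086 lower with global loess, 1934 and 1325 after print-tip loess, 90 and 0 in the authors' table, 1612 and 622 without arrays 2 and 4, and 84 and 6 without both after print-tip loess. With 1 array left out, 2651 to 4654 were higher and 1827 to 4002 lower, or 1 to 2366 and 0 to 1402 after print-tip loess (19 higher without array 4, and 1694 higher and 1030 lower without array 5). The Qdpr clone AU023976 changed sign to 0.17 after print-tip loess, to 0.084, 0.17, 0.23, 0.24 and 0.32 there with 1 array left out (-0.01 without array 6), to 0.084 there without arrays 2 and 4, and to 1.36 in the authors' table, where Slc18a1 was at 0.43; the cause was not tested. None of the other members passed in that table either, at 0.26 for Th, 1.80 for Gch1, 2.99 for the Qdpr clone AI837134, 0.75 for Ddc, and 1.52 and 3.91 for the Maoa clones AW537347 and AI838757, and the SE of the 8 clones there ran from 0.28 to 1.32. The Maoa clone AI838757 passed with median centring (0.46, limma adjusted p = 0.0274). Each ratio already pairs 1 knockout with 1 wild-type RNA within an array, so no further block was fitted. The background-subtracted wild-type signal was larger than the local background on all 6 arrays for Th, Ddc and Slc18a1. It was so on 5 and 2 for the Maoa clones AW537347 and AI838757, on 4 for Gch1 and the Qdpr clone AI837134, and on 3 for AU023976.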
